A study of Homo sapiens with 36 samples.

Results

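To investigate promoter-type chromatin outside annotated promoters in lung cancer cells, A549 peaks of H3K4me3 (trimethylated lysine 4 of histone H3) far from any annotated gene start were examined. A549 is a human lung adenocarcinoma line, and B2B (BEAS-2B) is an immortalized, non-cancerous bronchial epithelial line. Both were measured by ChIP-seq without treatment or genetic change. Each target had 2 replicates per line, and their reads were merged ahead of peak calling, so each list is pooled and carries no replicate error. A peak counted as distal if its nearest edge lay more than 5 kb from every transcription start site in GENCODE (release 44, genome build hg38). On chromosomes 1 to 12, which all 16 lists cover, 6083 of 21589 A549 H3K4me3 peaks were distal, or 28.2% (95% CI 27.6 to 28.8%). A further 12253 peaks lay within 1 kb of a start site and are called near, and 3253 lay between 1 and 5 kb. The members were chosen by the A549 H3K4me3 call and by distance, and both, with the strength and width of H3K4me3, are given as description only.

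H3K4me3 is deposited by SET1 and MLL complexes and is best known from active gene starts, where pol II initiates and where CpG islands recruit the methyltransferases. Away from genes, active enhancers carry H3K27ac and the Mediator subunit Med1, usually with more H3K4me1 than H3K4me3. Far H3K4me3 peaks can therefore be unannotated starts, starts of repeated elements or strongly active enhancers. AP-1 is a dimeric transcription factor whose Jun-family subunits here were JunB, Jun and JunD, and it binds TGACTCA or its reverse complement TGAGTCA.

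The distal peaks held several kinds of sequence, shown here because the overlap with other lists differed among them. The first pair gives 201 bases on the plus strand of hg38 around the H3K4me3 summit of the 2 strongest CpG-rich distal peaks of unshared sequence with H3K27ac, Med1 and pol II in A549 and no H3K4me3 in B2B, with every CpG in capitals. The first lies at chr7:20798196-20798396, between genes and 10.18 kb from the start of SP8. The second lies at chr1:239998070-239998270, between genes and 15.6 kb from the start of FMN2. They hold 26 and 33 CpGs.

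SP8 side: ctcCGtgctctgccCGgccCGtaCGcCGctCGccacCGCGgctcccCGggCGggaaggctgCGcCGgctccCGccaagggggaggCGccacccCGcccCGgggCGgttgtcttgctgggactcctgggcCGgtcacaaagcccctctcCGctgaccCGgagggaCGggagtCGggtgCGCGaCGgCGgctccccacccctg
FMN2 side: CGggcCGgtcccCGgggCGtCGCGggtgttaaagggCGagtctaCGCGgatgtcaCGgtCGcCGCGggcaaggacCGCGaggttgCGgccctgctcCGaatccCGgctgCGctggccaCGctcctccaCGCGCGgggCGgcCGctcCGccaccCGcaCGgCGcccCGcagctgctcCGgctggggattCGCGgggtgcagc

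A Jun-bound site is given as 201 bases of the plus strand around the Jun summit of a CpG-poor distal peak that all 3 Jun-family proteins overlapped in A549, with the AP-1 motif in capitals. It is among the 2 strongest such peaks of unshared sequence, outside exons, whose Jun summit has the motif within 50 bp and lies over 5 kb from a start site. It lies between genes at chr11:73779779-73779979, 7.57 kb from the start of MRPL48, which encodes a mitochondrial ribosomal protein. Its fold enrichments were 21.8 for Jun, 17.4 for JunB and 6.82 for JunD.

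MRPL48 side: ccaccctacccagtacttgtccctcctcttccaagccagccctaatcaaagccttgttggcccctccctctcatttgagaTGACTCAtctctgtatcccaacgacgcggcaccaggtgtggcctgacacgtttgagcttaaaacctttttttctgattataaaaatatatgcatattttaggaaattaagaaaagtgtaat

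Some distal peaks lay in repeated sequence. Windows of 500 bp around the summits were compared through all words of 30 bases, and members that shared at least 94 words were joined into families. The 3 largest families held 637, 35 and 21 peaks, and no repeat annotation was used to name them.

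Distal peaks were narrow and weak compared with near peaks. Their median width was 339 bp (quartiles 226 to 592 bp) against 1778 bp, and their median fold enrichment over local background was 5.39 (quartiles 4.37 to 8.05) against 29.7. The median pileup at the summit, solved from the deposited fold and p-value, was 22 reads for distal and 139 reads for near peaks, and the depth of the libraries was not given. The median distance to the closest start site was 16.9 kb. By annotation, 52.4% lay in introns, 42.7% between genes and 4.95% over an exon, and 45.3% were inside a protein-coding gene. Their density ran from 2.27 per Mb on chromosomes 3 and 4 to 3.60 per Mb on chromosome 7. Another H3K4me3 peak lay within 1 kb of 29.2% of them, and none lay within 50 kb of 26.5%. Of 5649 distal peaks outside chromosome 8, 146 lay within 1 kb of a RefSeq gene start that GENCODE lacks, or 2.58%.

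To check the labels, peaks of H3K4me3 within 1 kb of marker gene starts were counted. Epithelial markers EPCAM, CDH1, KRT8 and KRT18 had one in both lines and KRT19 in neither. Of 5 alveolar type II markers, A549 had peaks at SFTPC and NKX2-1 and none at SFTPB, SFTPA1 or NAPSA, while B2B had one at NKX2-1 alone. Of 3 airway basal markers, B2B had none and A549 had TP63. Fibroblast markers had peaks at 3 of 3 genes in B2B and 1 of 3 in A549, and blood markers at 0 of 2 in either. The start sites of CDKN2A and CDKN2B, in the 9p21 region deleted in A549, had a peak in B2B only. MTAP, listed with them as deleted in A549, had one in both lines. The outcome of the check was thus mixed, for these genes and for the airway basal and fibroblast markers.

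H3K27ac, pol II and Med1 were each found at a minority of distal peaks. An overlap was 1 bp or more, shares are given with Wilson 95% intervals, differences in percentage points with Newcombe 95% intervals, and a difference was called where its interval left out 0. These intervals cover counting error only. H3K27ac overlapped 2445 of 6083 distal peaks, or 40.2% (39.0 to 41.4%), against 65.3% of all A549 H3K4me3 peaks and 85.5% of near peaks. Pol II overlapped 2671 distal peaks, or 43.9% (42.7 to 45.2%), against 64.8% of all and 81.0% of near peaks. Med1 overlapped 1179 distal peaks, or 19.4% (18.4 to 20.4%), against 41.5% of all and 58.9% of near peaks. The distal minus near difference was −45.3 points for H3K27ac (−46.6 to −43.9), −37.1 points for pol II (−38.5 to −35.6) and −39.5 points for Med1 (−40.8 to −38.2). Among peaks of matched strength, with a fold enrichment between the quartiles of the distal peaks, the pol II and Med1 differences shrank to −2.44 points (−5.50 to 0.590) and −0.722 points (−3.05 to 1.51), neither called, and that for H3K27ac to −9.04 points. With at least 50% of a peak covered, the pol II difference was −17.0 points and that of Med1 0.432 points, not called. Near peaks are wider, which gives the 1 bp rule more room for an overlap there, and these differences were not matched for width. Peaks between 1 and 5 kb, which lie closer to genes, had shares near those of distal peaks, with H3K27ac at 36.0%, pol II at 43.3% and Med1 at 17.5%.

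**Figure D1:**
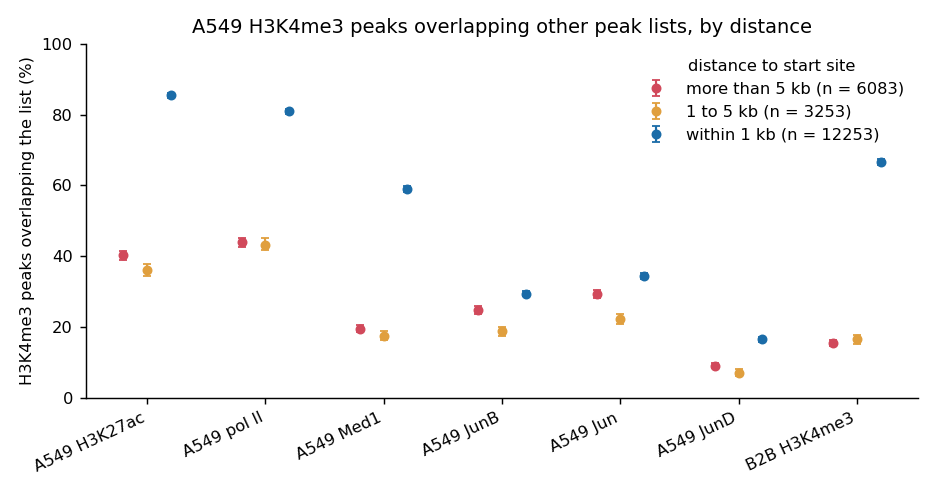
Share of A549 H3K4me3 peaks, in percent, that overlapped each other peak list, for peaks more than 5 kb from a start site, between 1 and 5 kb, and within 1 kb. Points are shares with Wilson 95% intervals. Distal and 1 to 5 kb peaks sit close together, at 40.2% and 36.0% for H3K27ac, well under the 85.5% of near peaks, whereas Jun lies between 22.3% and 34.4% in the 3 groups.

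Taken in combination, 820 distal peaks, or 13.5%, carried H3K27ac, Med1 and pol II together, and 2529, or 41.6%, carried none of the 3. H3K27ac alone of the 3 marked 819 peaks, and H3K27ac with pol II marked 775. Pol II without H3K27ac was seen at 1076 peaks, of which 295 also had Med1. The group with all 3 had a median fold enrichment of 8.17 and a median width of 714 bp, against 4.96 and 275 bp for the group with none. Med1 without pol II was rare, at 31 peaks with and 33 peaks without H3K27ac. Adding the Jun family, 2137 distal peaks, or 35.1%, overlapped no other A549 list, and 246 overlapped all 6. These combinations were counted at distal peaks only. Without the same shares over all A549 H3K4me3 peaks, they do not show whether a combination is particular to distal peaks.

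Active marks were most frequent at the strongest distal peaks. Distal peaks were placed in 5 groups by H3K4me3 fold enrichment, which runs from 2.16 to 50.3. H3K27ac overlapped 27.9% of the weakest group (25.4 to 30.4%) and 74.9% of the strongest (72.4 to 77.3%). Pol II rose from 38.2% to 66.1% and Med1 from 14.8% to 34.0% between the same groups. Jun went the other way, from 31.3% (28.8 to 34.0%) to 23.8% (21.5 to 26.3%), and JunB from 26.4% to 19.4%. JunD was at 6.24% of the weakest (5.02 to 7.75%), 10.8% of the fourth and 9.78% of the strongest group (8.23 to 11.6%). Width moved with fold enrichment, with medians of 222 bp in the weakest and 896 bp in the strongest group, and its part in these shares was not tested.

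**Figure D2:**
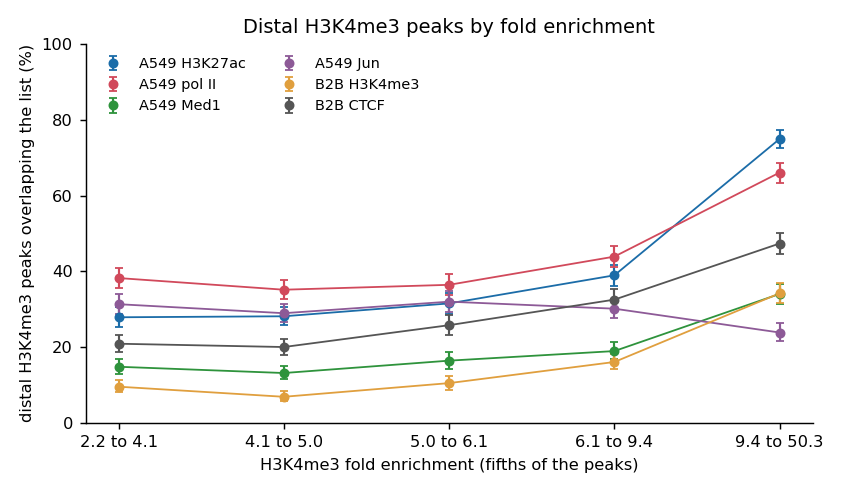
Distal H3K4me3 peaks in 5 groups of rising fold enrichment (horizontal axis, range of each group) against the percent overlapping each list, with Wilson 95% intervals. H3K27ac climbs from 27.9% to 74.9% and B2B H3K4me3 from 9.53% to 34.2%, mostly in the strongest group, whereas Jun falls to 23.8% there.

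Overlap was also lower farther from start sites. H3K27ac overlapped 44.9% of distal peaks between 5 and 10 kb from a start site (42.5 to 47.2%) and 29.1% of the 244 peaks beyond 100 kb (23.8 to 35.1%). Pol II overlapped 52.3% and 21.7% of the same groups, and Jun 30.8% and 20.9%. The 3 distal peaks closest to it lay 5.001 kb from a start in an intron of PFKFB3, 5.006 kb away on the side of YWHAZ, and 5.011 kb from the start of GPIHBP1, with fold enrichments of 5.37, 33.0 and 3.13. The 3 peaks left out closest to it lay 5.00, 4.99 and 4.98 kb away, near NUP160, in PLEC and near MORN3, with fold enrichments of 4.59, 2.99 and 8.26.

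To ask how often AP-1 sits at distal H3K4me3, the 3 Jun-family lists were overlapped with it. Jun was found at 1774 distal peaks, or 29.2% (28.0 to 30.3%), where all A549 H3K4me3 peaks had 31.1%. JunB was found at 1509, or 24.8% (23.7 to 25.9%), where all peaks had 26.5%. JunD was found at 547, or 8.99% (8.30 to 9.74%), where all peaks had 12.9%. All 3 proteins met at 515 distal peaks, or 8.47%, against 10.2% of all peaks. These shares were close to the background of all H3K4me3 peaks. The distal minus near difference was −5.24 points for Jun (−6.65 to −3.81), −4.59 points for JunB (−5.93 to −3.23) and −7.43 points for JunD (−8.39 to −6.44). This direction turned under some of the other settings, and the cause was not tested. Among peaks of matched fold enrichment the difference was 10.6 points for Jun, 9.50 points for JunB and 4.11 points for JunD. Where a peak had to be covered over at least 50% of its length, Jun differed by 10.8 points, JunB by 9.40 points and JunD by 0.765 points. Without peaks of shared sequence, Jun and JunB differed by 0.0849 and 0.364 points, neither called. Where a Jun or JunB summit had to lie inside the peak, the differences were −16.8 and −15.4 points, and with a −log10 q of at least 5 in every list JunB differed by −2.57 and JunD by −4.15 points.

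JunB and Jun shared most of their distal H3K4me3 sites. JunB and Jun without JunD overlapped 853 distal peaks, Jun alone 396 and JunB alone 136. JunD was seen without both others at 17 peaks. Pol II was found at 29.4% of the 4151 distal peaks with no Jun-family protein, 60.5% of those with 1, 76.2% of the 868 with 2 and 88.5% of the 515 with all 3. Med1 was found at 8.21%, 29.3%, 37.7% and 68.0% of the same groups. H3K27ac moved less, from 38.3% to 39.7%, 41.0% and 54.6%. Between peaks with any Jun-family protein and those with none, the difference was 45.6 points for pol II (43.1 to 47.9), 35.2 points for Med1 (32.8 to 37.5) and 5.95 points for H3K27ac (3.29 to 8.62). Median width rose from 325 bp with no Jun-family protein to 420 bp with all 3. Among peaks between the quartiles of width, pol II stood at 22.1% with none and 83.8% with all 3.

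**Figure D3:**
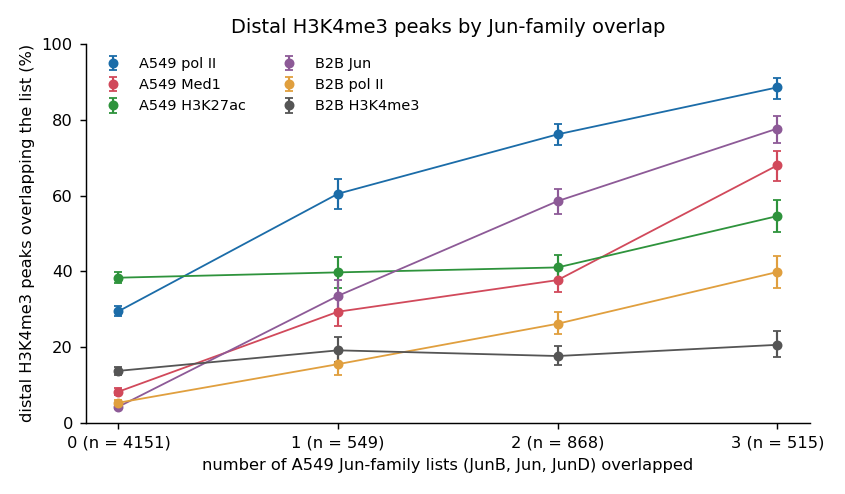
Distal H3K4me3 peaks by the number of A549 Jun-family lists they overlapped (horizontal axis) against the percent overlapping each list of A549 or B2B, with Wilson 95% intervals. Pol II in A549 rises from 29.4% to 88.5% and Med1 from 8.21% to 68.0%, while B2B H3K4me3 stays between 13.7% and 20.6%.

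The AP-1 motif was examined at the H3K4me3 summits and at the Jun summits. TGACTCA or TGAGTCA, which are the same motif on the 2 strands, occurred within 150 bp of 8.52% of distal H3K4me3 summits and 2.42% of near summits, a difference of 6.10 points (5.37 to 6.87), against 4.75% of all A549 H3K4me3 peaks. Among peaks of matched fold enrichment the difference was 3.76 points, and with windows of 50 bp and 500 bp to each side it was 1.91 and 15.7 points. Distal and near summits differ in CpG content as well, as given below, and the motif difference was not matched for it. Windows of 150 bp to each side placed 2 kb away held it at 4.64% and 4.39%. The closest Jun summit lay a median of 207 bp from the H3K4me3 summit of its distal peak, outside this window for most. Within 50 bp of Jun summits, the motif was present at 42.1% of 1677 Jun peaks on distal H3K4me3 (39.8 to 44.5%) and 48.3% of 12174 distal Jun peaks with no H3K4me3 (47.4 to 49.2%), a difference of −6.18 points (−8.68 to −3.64). For JunD the difference was 9.31 points in favour of H3K4me3 sites (4.63 to 14.0), with 50.9% against 41.5%. For JunB it was 2.32 points, with an interval from −0.483 to 5.11 points that includes 0. Jun peaks on distal H3K4me3 were stronger than those without, with median fold enrichments of 15.7 and 9.52.

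Distal A549 H3K27ac peaks were split by overlap with H3K4me3, to place that mark among acetylated sites. Of 8911 distal A549 H3K27ac peaks, 2457, or 27.6%, overlapped an H3K4me3 peak. Pol II overlapped 63.0% of those with H3K4me3 and 24.6% of those without, a difference of 38.4 points (36.2 to 40.5), where 35.2% of all distal H3K27ac peaks had pol II. Med1 overlapped 32.8% and 12.4%, a difference of 20.4 points (18.4 to 22.4), where all had 18%. Jun overlapped 26.9% and 16.1%, a difference of 10.8 points (8.87 to 12.8), where all had 19.1%. JunB differed by 8.53 points (6.60 to 10.5), where all had 19.3%, and JunD by 7.90 points (6.58 to 9.31), where all had 6.08%. Among H3K27ac peaks of matched fold enrichment, the differences were 25.7 points for pol II, 8.08 for Med1, 4.64 for Jun, 3.48 for JunB and 2.66 for JunD, all still called. With at least 50% of the peak covered, Med1 differed by 10.7 points, Jun by 5.64, JunB by 4.69 and JunD by 0.850. Beyond 20 kb from a start site, Jun differed by 5.65 and JunB by 4.45 points.

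CpG-rich sequence marked a separate group of distal peaks. A peak was CpG-rich if the 500 bp around its summit had a GC content of at least 50% and an observed to expected CpG ratio of at least 0.6, the features of CpG islands. This held for 1046 distal peaks, or 17.2% (16.3 to 18.2%), against 48.6% of all A549 H3K4me3 peaks and 73.4% of near peaks, a distal minus near difference of −56.2 points (−57.5 to −55.0). Among peaks of matched fold enrichment it was −18.9 points (−21.6 to −16.3). CpG-rich distal peaks overlapped H3K27ac at 79.8% against 32.0% of CpG-poor ones, a difference of 47.9 points (45.0 to 50.5). Jun went the other way, at 11.0% against 32.9%, a difference of −21.9 points (−24.1 to −19.5), and so did JunB, at 9.37% against 28.0%. Pol II overlapped 44.2% and 43.9%, a difference of 0.313 points with an interval from −2.97 to 3.63. CpG-rich distal peaks were also stronger and wider than CpG-poor ones. Their median fold enrichments were 8.86 and 5.17, and their median widths 535 and 320 bp. The contrasts between these 2 groups were not matched for fold enrichment or width.

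Part of the CpG-rich group was repeated sequence. At least 20% of the 30-base words around the summit occurred in another A549 H3K4me3 peak at 1235 distal peaks, or 20.3%, against 10.6% of all H3K4me3 peaks. Of the 1046 CpG-rich distal peaks, 475 shared sequence in this way and 333 belonged to the family of 637. Among the 4848 peaks with no such sharing, 571 were CpG-rich, with a median fold enrichment of 15.2 and a median width of 815 bp, against 5.12 and 320 bp for the 4277 CpG-poor ones. H3K27ac overlapped 84.6% of the former and 29.5% of the latter. Pol II overlapped 56.7% and 47.6%, a difference of 9.14 points (4.78 to 13.4). Jun overlapped 16.8% and 37.6%, a difference of −20.8 points (−24.0 to −17.2). The AP-1 motif lay within 150 bp of the summit at 2.80% of the CpG-rich and 8.93% of the CpG-poor peaks of unshared sequence. Over all distal peaks these shares were 7.55% and 8.72%. The contrasts among peaks of unshared sequence were likewise not matched for fold enrichment or width.

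The family of 637 peaks was the largest group of like sequences. Its 637 members lay on all 12 chromosomes and made up 10.5% of distal peaks. They were weak, with a median fold enrichment of 4.96 and a maximum of 30.5. H3K27ac overlapped 387 of them, or 60.8% (56.9 to 64.5%), which was 22.96 points above other distal peaks (18.9 to 26.9). Pol II overlapped 107, or 16.8%, which was 30.3 points below the others (interval of the difference −33.3 to −26.9). Med1 overlapped 10, JunB 1, Jun 1 and JunD 0. In B2B, 11 of the 637 overlapped an H3K4me3 peak, 12 an H3K27ac peak and 6 a pol II peak, and 97% overlapped none of the 9 B2B lists. The AP-1 letters were nevertheless present within 150 bp of 14.8% of the summits of this family, against 7.79% of other distal peaks.

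All 35 peaks of the next family had H3K27ac, with a median GC content of 79.2%, and so did 20 of the family of 21. Pol II overlapped 10 and 13 of them, no Jun-family list overlapped either family, and neither had H3K4me3, H3K27ac or pol II in B2B. How the authors placed reads that match several copies equally is not given in the sources used here, and the part of read placement in these counts was not tested.

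**Figure D4:**
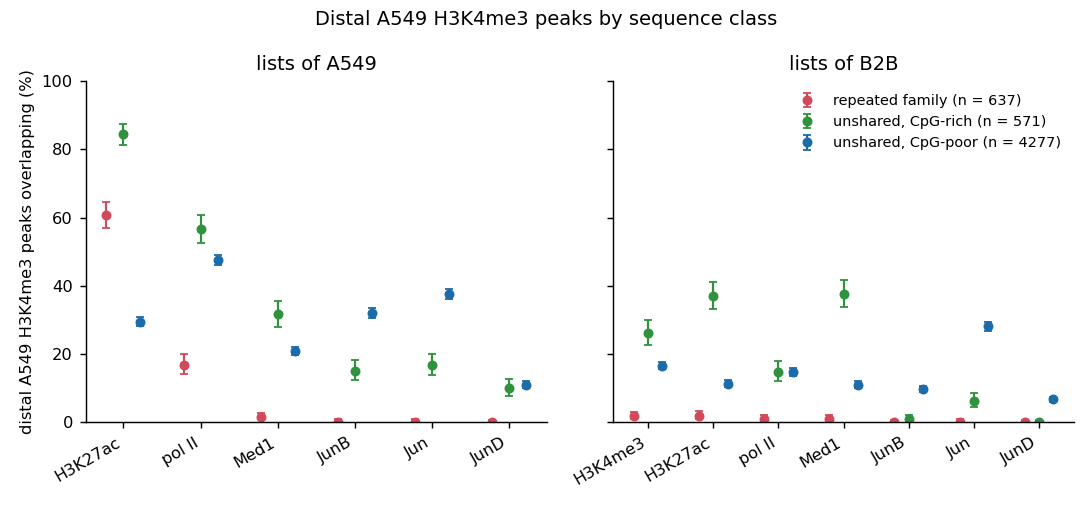
Percent of distal A549 H3K4me3 peaks that overlapped lists of A549 (left) and B2B (right), for the family of 637 peaks (repeated family), peaks with unshared CpG-rich sequence and peaks with unshared CpG-poor sequence, with Wilson 95% intervals. The repeated family has 60.8% with H3K27ac in A549 and under 2% in each B2B list plotted, whereas Jun is most frequent at CpG-poor peaks, at 37.6%.

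The state of the same sites in B2B was then scored. Because the sites were chosen as A549 peaks, a lower share in B2B is in part fixed by the choice. H3K4me3 was called in B2B at 933 of 6083 distal sites, or 15.3% (14.5 to 16.3%), against 44.7% of all A549 H3K4me3 peaks and 66.7% of near peaks, a difference of −51.4 points (−52.6 to −50.1). Among peaks of matched fold enrichment, this difference was −7.12 points (−9.39 to −4.95), with 10.2% of distal and 17.3% of near peaks. A further 468 sites, or 7.69%, had H3K27ac without H3K4me3 in B2B. Another 831, or 13.7%, had neither but had Med1, pol II or a Jun-family protein, with or without CTCF or Rad21. Only CTCF or Rad21 was found at 703, or 11.6%. No B2B list of the 9 overlapped 3148 sites, or 51.8% (50.5 to 53.0%). Apart from H3K4me3, these classes were counted at distal sites only. They have no share over all A549 H3K4me3 peaks beside them and do not show a trait particular to distal sites. B2B had 2173 distal H3K4me3 peaks of its own, and 48.7% of them overlapped an A549 H3K4me3 peak. The median local background solved from the B2B list was 34.4 reads at its near peaks and 3.06 reads at its distal ones, whereas in A549 it was 3.37 and 3.02 reads.

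Each active mark was less frequent in B2B at these sites. Pol II overlapped 12.1% in B2B, 31.8 points fewer than in A549 (30.5 to 33.1), H3K27ac 12.5%, 27.7 points fewer (26.5 to 28.8), and Med1 12.5%, 6.89 points fewer (5.89 to 7.90). JunB overlapped 7.07% in B2B, 17.7 points fewer (16.8 to 18.7), Jun 20.8%, 8.32 points fewer (7.36 to 9.28), and JunD 4.78%, 4.21 points fewer (3.48 to 4.95). The A549 lists of pol II and JunB are longer than those of B2B, with 33170 against 16953 and 19926 against 6318 peaks. With the stronger peaks of each target kept to equal list lengths, the differences were 21.2 points for pol II and 7.94 points for JunB. Where a summit had to lie inside the peak, they were 7.36 points for JunB, 3.83 for Jun, 3.70 for Med1 and 1.74 for JunD. With at least 50% of the peak covered they were 9.47, 2.89, 2.91 and 0.0329 points, the last not called. Across all A549 H3K4me3 peaks the B2B shares were 34.8% for pol II, 43.7% for H3K27ac, 41.9% for Med1, 15.8% for Jun, 4.09% for JunB and 2.34% for JunD. The B2B shares of the 3 Jun-family proteins were thus above those of all H3K4me3 peaks, and those of pol II, H3K27ac and Med1 below. Acetylated distal sites had H3K27ac in B2B at 29.3%, against 1.29% of those without A549 H3K27ac, a difference of 28.0 points (26.2 to 29.9). Of the 515 sites with all 3 Jun-family proteins in A549, 77.7% had Jun in B2B, 137 had all 3 there and 115 had none. B2B H3K4me3 was present at 20.6% of these 515.

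CTCF and the cohesin subunit Rad21 were measured here in B2B only. CTCF overlapped 29.2% of distal sites (28.0 to 30.3%), where 32.6% of all A549 H3K4me3 peaks overlapped it, and Rad21 19.7%, where all had 47.7%. Distal sites with H3K4me3 in both lines overlapped B2B CTCF at 55.6% (52.4 to 58.8%), and those with H3K4me3 only in A549 at 24.4% (23.2 to 25.6%). Both B2B lists also rose with A549 fold enrichment. From the weakest to the strongest of the 5 groups, B2B H3K4me3 went from 9.53% to 34.2% and B2B CTCF from 20.9% to 47.3%. The contrast between these sites was not split by strength or width. Among the 2137 sites with no other A549 mark, 22.3% overlapped B2B CTCF, 10.6 points fewer than the rest (8.30 to 12.9 fewer). In the weakest of the 5 fold enrichment groups the shares were 15.0% without and 25.2% with another A549 mark, in the middle group 24.0% and 26.98%, and in the strongest 46.2% and 47.5%.

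The 594 sites with H3K27ac, Med1 and pol II in A549 and no H3K4me3 in B2B, or 9.76%, are led by 5 CpG-rich regions. The strongest, the SP8 region printed above, spans chr7:20797066-20799080 and had fold enrichments of 48.1 for H3K4me3, 78.6 for H3K27ac and 58.6 for pol II. SP8 encodes a zinc finger factor of limb and brain development. The FMN2 region at chr1:239997324-239998725 followed with 41.0 for H3K4me3, and FMN2 encodes an actin nucleator. The third lies in an intron of the non-coding gene LINC01163 at chr10:128210096-128211242, with 39.8 for H3K4me3 and 95.1 for H3K27ac. The fourth, at chr2:130797379-130798653, lies 38.3 kb from the start of ARHGEF4 and was the only one of the 5 with JunB, while the fifth had JunD. The fifth, at chr5:77644526-77646116, lies 5.81 kb from OTP, a homeobox gene. Each of the 5 overlapped Rad21 in B2B, with folds of only 2.87 and 3.27 at the first 2, and 3 of them CTCF. Among all unshared CpG-rich distal peaks, 70.4% overlapped Rad21 and 46.9% CTCF in B2B.

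Among the 933 sites with H3K4me3 in both lines, the strongest in A549 were likewise CpG-rich. A region between genes at chr12:65740693-65742662, 81.8 kb from HMGA2, an architectural chromatin factor, had a fold enrichment of 50.3 in A549 and 2.49 in B2B. A region in an intron of RBM20, a splicing factor gene, at chr10:110671901-110672896 had 46.2 and 4.41. A region 16.0 kb from B3GNT7, a glycosyltransferase gene, at chr2:231411704-231412971 had 44.1 and 2.13, and a region at chr1:31154369-31156161, 83.7 kb from NKAIN1, had 43.7 and 2.47. The fifth, at chr2:94272659-94273828, had 43.7 and 2.26 and lies 313.3 kb from the closest coding start, that of AQP7B. Folds of 2 lists share no scale and are set side by side only.

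The strongest of the 2137 H3K4me3 sites without another A549 mark were CpG-poor and all 5 overlapped CTCF in B2B. Over the 2137 sites that share was 22.3%, and over those in the strongest fold enrichment group 46.2%. A region at chr2:106581833-106582768, 94.5 kb from CD8B2, had an H3K4me3 fold enrichment of 28.2 and a B2B CTCF fold of 24.5. A region in an intron of TSNAX-DISC1 at chr1:231602944-231604242 had 27.7 for H3K4me3, 32.7 for CTCF and 13.8 for B2B H3K4me3. Regions at chr6:28657394-28659485, on the side of SCAND3, and chr6:27274913-27275962, 27.2 kb from PRSS16, a thymic serine protease gene, had 23.1 and 22.04 for H3K4me3. Their B2B CTCF folds were lower, at 4.69 and 4.86. The fifth, at chr5:90439802-90440271, 30.04 kb from the centrin gene CETN3, had 21.9 for H3K4me3 and 26.3 for CTCF. In 4 of the 5, B2B had an H3K4me3 peak as well, where 12.9% of the 2137 sites did. Of all distal peaks in the strongest fold enrichment group, 34.2% did.

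The strongest of the 515 sites with all 3 Jun-family proteins were also acetylated. A CpG-rich region in an intron of LDB3, a gene of the muscle Z-disc, at chr10:86710882-86712755 had 43.5 for H3K4me3 and 4.78 for Jun. A region at chr1:146368677-146370804 had 41.4 for H3K4me3, and 97.5% of its 30-base words occurred in another peak, so its reads may belong elsewhere. A region at chr3:115783476-115785237, 160.0 kb from GAP43, a gene of neuronal growth cones, had 41.2 for H3K4me3 and 7.80 for JunB. A CpG-poor region at chr12:114667865-114669287, 14.9 kb from TBX3, a T-box factor, had 37.7 for H3K4me3, 23.01 for Jun, 15.7 for JunB and 5.99 for JunD. A region at chr2:41840885-41841859, 206.2 kb from PKDCC, a secreted kinase gene, had 37.6 for H3K4me3.

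The widest distal peaks were not the strongest. A region of 5509 bp at chr12:34345799-34351307, 323.3 kb from ALG10, had a fold enrichment of 39.3. A region of 5157 bp over an exon of ALDH1A1, a retinaldehyde dehydrogenase gene, at chr9:72939469-72944625 had 11.9 for H3K4me3 and 15.1 for H3K27ac. A region of 5139 bp in an intron of SLCO1B3, an organic anion transporter gene, at chr12:20820816-20825954 had 22.04 for H3K4me3 and 70.2 for pol II. None of these 3 overlapped a list of B2B.

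Distal peaks were spread over 1422 of 12569 protein-coding genes, of which 856 hosted a single peak and 111 hosted 5 or more. The genes with most were chosen after their values were seen. Over all distal peaks, 43.9% had pol II, 40.2% H3K27ac, 31.8% a Jun-family protein, 19.4% Med1 and 15.3% B2B H3K4me3. PDE4D, a cyclic AMP phosphodiesterase gene of 1553 kb, hosted 68 distal peaks, of which 34 had pol II, 21 a Jun-family protein and 8 H3K27ac. THSD7A hosted 37, of which 4 had pol II and 3 H3K27ac. ALDH1A1, only 180 kb long, hosted 29, or 16.1 per 100 kb, of which 25 had pol II, 14 Med1 and 0 B2B H3K4me3. All 14 of the peaks in ASPH had pol II and none a Jun-family protein, whereas 9 of the 14 in NRG1, the neuregulin ligand gene, had a Jun-family protein.

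Gene lists were scored by genes that host, or are the closest coding start to, a distal peak, which held for 26.4% of all protein-coding genes. Of 11 NRF2 target genes on chromosomes 1 to 12, which defend against oxidative stress, 8 did, with a median of 2 distal peaks against 0 for all genes. SLC7A11, the cystine transporter gene, had 10, of which 7 had pol II and 5 Med1. AKR1C1, an aldo-keto reductase gene with a close copy in AKR1C2, had 7, all with pol II. TXNRD1, the thioredoxin reductase gene, had 5, all with pol II, and TKT 4. Across these 8 genes only SLC7A11 had a distal peak with a Jun-family protein, and none had B2B H3K4me3. The shares over all distal peaks were 43.9% for pol II, 40.2% for H3K27ac, 31.8% for a Jun-family protein, 19.4% for Med1 and 15.3% for B2B H3K4me3. Of 9 EGF receptors and ligands, 5 did, with 6 distal peaks for EGFR, of which 5 had H3K27ac and 4 a Jun-family protein, and 5 for EREG, the epiregulin gene. Of 6 genes on the list of lung and endoderm regulators, 4 did. TEAD1, a TEAD partner of YAP1, had 7, whereas GRHL2 had 3, HHEX 2 and EHF 1. Of 7 epithelial-mesenchymal genes, 4 did, led by ZEB2 with 7, of which 0 had H3K27ac. AP-1 subunits had 1 of 5 (BATF3), and keratins 1 of 5 (KRT8). Longer genes have more room for such peaks, and gene length was not taken into account.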

How the data were processed

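ChIP-seq was made from 36 samples of A549 and B2B cells. Per the study's methods and the submitters' processing notes, reads were aligned to hg38, duplicates were removed, 2 replicates were merged and scaled, and peaks were called, with Bowtie2 (2.4.4), SAMtools (1.13) and MACS2 (2.2.7.1). The control and other options are not given in the sources used here. The authors deposited 1 narrowPeak list per line and target, with a score (the whole part of 10 times −log10 q), the fold enrichment ratio at the summit and the −log10 of the caller's p-value. The −log10 q was taken from the score, and its lowest value was 2.

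Overlaps, distances to GENCODE starts, CpG content, motifs and shared 30-base words were computed with Python (3.11.15), NumPy (2.4.6), SciPy (1.17.1), pandas (2.3.3) and pysam (0.24.0), and plots with Matplotlib (3.10.9). Wilson and Newcombe 95% intervals cover counting error only. The paired form was used between the lines. Differences were not adjusted for their number: 21 main ones and 79 within distal peaks, besides those at Jun summits, for CTCF and between the lines. The overlap and interval code was tested on simulated data. Named regions were the 5 of highest H3K4me3 fold enrichment in each of 4 classes, the 3 widest, and the 3 nearest to the distance limit on each side. The members and lists were chosen with earlier results of these data known. Alternatives were overlap rules, a −log10 q of at least 5, limits of 10 and 20 kb, RefSeq starts (none for chromosome 8), bins, neighbours merged, matched fold enrichment, equal list lengths, CpG and motif settings, and, chosen after seeing the data, peaks with shared sequence left out. CTCF and Rad21 in A549 and the input libraries were not analysed here. Printed sequences were taken from chromosomes other than 8. Certain sequences and genes are not reported here.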

Additional observations from a re-analysis of the deposited data

Results flagged for a closer look

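The distal minus near difference was set against the same difference for the B2B list of each target over the same A549 H3K4me3 sites. The A549 effect minus the B2B effect was given a 95% interval of counting error over sites. With 1 pooled list per line and target, this interval does not cover differences between cultures. The sites were chosen as A549 peaks, and the contrast was not recomputed with equal list lengths or matched fold enrichment. The interval left out 0 for each of the 6 targets. For JunB the A549 effect was −4.59 points and the B2B effect 4.59 points (3.91 to 5.31), a difference of −9.18 points (−10.4 to −7.91). For Jun they were −5.24 and 7.26 points, a difference of −12.5 points (−13.7 to −11.2). For JunD they were −7.43 and 3.67 points, a difference of −11.1 points (−12.1 to −10.1). The Jun-family effects thus had opposite signs in the lines, and those of A549 turned under some other settings. For H3K27ac the difference between the lines was 8.90 points (7.53 to 10.3), for Med1 11.8 points (10.6 to 13.1) and for pol II 2.74 points (1.22 to 4.25). A cause was not tested.

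Outside the chromosomes used above, the A549 H3K4me3 list held 2463 peaks beyond 5 kb of a start site on chromosomes 13 to 22, X and Y, or 22% of its 11212 peaks there. They are data that no comparison above used, and were left out because some lists do not cover these chromosomes.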

How the results depend on the processing

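Over 14 alternatives, 177 of 189 recomputed differences kept their direction and call, though many changed in size. This tally is no measure of robustness. Leaving out 1 Mb bins without a start site removed only 3 of 6083 distal peaks and 0 near peaks, so it could hardly change a difference. Merging neighbours within 1 kb recomputed only the number of distal peaks (5088), and no difference was recomputed with neighbours merged. Where a peak had to be covered over at least 50% of its length, the distal minus near difference was 0.432 points for Med1, 9.40 for JunB, 10.8 for Jun and 0.765 for JunD, all turned in sign (that of Med1 not called), and the A549 minus B2B difference of JunD was 0.0329 points and no longer called. Near peaks are wider, so this rule lowers their shares by construction, whereas the 1 bp and summit rules give wider peaks more room for an overlap. Differences between distal and near peaks were not matched for width. Among peaks of matched fold enrichment, the distal minus near difference was −0.722 points for Med1 and −2.44 for pol II, no longer called, and 9.50 for JunB, 10.6 for Jun and 4.11 for JunD, turned in sign. Without peaks that share sequence, it was 0.364 points for JunB (−1.16 to 1.91) and 0.0849 for Jun (−1.51 to 1.69). The cause was not tested for either. A limit of 20 kb left 2610 distal peaks. No paired analysis was possible because the lists pool the replicates, and for the same reason no replicate could be left out. Counting intervals do not cover differences between cultures, and sites missed in B2B may lie under its calling threshold.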
